A study of Mus musculus with 14 samples.

Results

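Circadian clock genes were followed in the livers of 14 mice. The members are the 10 rows of the count table whose gene name is *Arntl*, *Clock*, *Npas2*, *Per1*, *Per2*, *Per3*, *Nr1d1*, *Dbp*, *Ciart* or *Cry1*, out of 55487 genes in the table. Of the 10, 9 were among the 12653 genes that had enough reads for edgeR's expression filter. *Npas2* did not pass it.

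The mice were males of the TALLYHO strain, which develops type 2 diabetes from many gene variants. A vehicle group of 7 mice received water and an indole group of 7 mice received 20 mg/kg indole, a compound that gut bacteria make from tryptophan. Both were given by oral gavage, 2 times per day for 7 days, with further doses between the metabolic tests that followed. RNA of the right liver lobe was sequenced as stranded poly(A) libraries. The paper states that its procedures on mice took place in the light phase of a light/dark cycle. The hour of collection is not given in the sources used here. In pieces of whole liver, fewer cells of a type and less RNA per cell cannot be told apart.

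The clock is a loop of transcription. ARNTL (also called BMAL1) pairs with CLOCK or NPAS2 and switches on genes that carry E-box sequences in their control regions, among them the *Per* and *Cry* genes, *Nr1d1*, *Dbp* and *Ciart*. The PER, CRY and CIART proteins then block the activators, and NR1D1 (REV-ERBα) represses *Arntl*. In a mouse liver the activator mRNAs are therefore known to peak at roughly the opposite time of day from *Nr1d1*, *Dbp* and the *Per* genes, with *Cry1* peaking later than these. The targets other than *Cry1* were treated as a single set, and differences in peak time among them were not tested. The comparison between mice asks whether activators and targets deviated from their group means in opposite directions.

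The promoters show which members carry the sequences named above close to their start. RefSeq promoter windows on GRCm38.p6, of 250 bases before and 50 after each start, were found for 9 of the 10 members. *Per2* had no entry. The windows printed are those of *Arntl* at chr7:113207261-113207560 (+), *Per1* at chr11:69098699-69098998 (+), *Per3* at chr4:151044616-151044915 (-), *Nr1d1* at chr11:98775328-98775627 (-), *Dbp* at chr7:45704997-45705296 (+) and *Ciart* at chr3:95882179-95882478 (-). The *Arntl* window is the second of the pair listed for that gene, chosen, as the *Per3* window was, after its motif was seen. Capitals mark a match on either strand. In *Per1* and *Ciart* it is the E-box CACGTG, and in *Nr1d1* the near E-box CACGTT read from the other strand. In *Per3* it is the DBP-type site TTATGTAA, and in *Arntl* the site TAGGTCA bound by REV-ERB receptors.
Arntl: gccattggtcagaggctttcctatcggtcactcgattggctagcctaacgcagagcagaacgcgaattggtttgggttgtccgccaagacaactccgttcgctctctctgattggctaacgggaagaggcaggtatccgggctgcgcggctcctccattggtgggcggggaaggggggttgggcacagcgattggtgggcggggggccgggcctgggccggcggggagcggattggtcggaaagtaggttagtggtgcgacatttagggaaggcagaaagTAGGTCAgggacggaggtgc
Per1: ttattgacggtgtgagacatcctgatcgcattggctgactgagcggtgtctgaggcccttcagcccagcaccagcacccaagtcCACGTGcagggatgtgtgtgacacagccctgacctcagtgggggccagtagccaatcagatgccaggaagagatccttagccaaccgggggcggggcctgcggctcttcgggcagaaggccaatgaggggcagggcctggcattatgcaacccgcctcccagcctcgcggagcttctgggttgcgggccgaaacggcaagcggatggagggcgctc
Per3: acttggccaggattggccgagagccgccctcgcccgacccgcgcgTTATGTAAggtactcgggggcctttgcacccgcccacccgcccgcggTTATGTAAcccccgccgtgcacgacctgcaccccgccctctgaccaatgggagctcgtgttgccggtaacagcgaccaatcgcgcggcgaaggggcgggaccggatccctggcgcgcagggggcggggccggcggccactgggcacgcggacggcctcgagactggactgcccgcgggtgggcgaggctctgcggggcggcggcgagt
Nr1d1: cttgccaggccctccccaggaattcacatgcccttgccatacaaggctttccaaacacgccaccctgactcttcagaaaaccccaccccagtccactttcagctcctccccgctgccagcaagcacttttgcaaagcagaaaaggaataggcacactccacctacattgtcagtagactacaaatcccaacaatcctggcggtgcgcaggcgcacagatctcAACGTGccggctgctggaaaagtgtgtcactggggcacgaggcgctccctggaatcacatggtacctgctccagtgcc
Dbp: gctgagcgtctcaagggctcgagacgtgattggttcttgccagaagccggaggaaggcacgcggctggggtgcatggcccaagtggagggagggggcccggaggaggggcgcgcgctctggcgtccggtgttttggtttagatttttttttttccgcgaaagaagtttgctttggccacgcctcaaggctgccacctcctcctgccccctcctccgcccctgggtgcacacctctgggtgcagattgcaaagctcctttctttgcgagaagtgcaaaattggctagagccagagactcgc
Ciart: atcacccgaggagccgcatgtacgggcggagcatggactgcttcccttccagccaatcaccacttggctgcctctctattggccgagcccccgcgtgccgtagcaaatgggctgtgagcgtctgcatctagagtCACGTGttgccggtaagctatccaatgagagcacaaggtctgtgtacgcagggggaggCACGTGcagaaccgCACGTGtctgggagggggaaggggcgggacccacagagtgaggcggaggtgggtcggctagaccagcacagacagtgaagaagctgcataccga
The *Ciart* window held CACGTG at 3 places, 116, 58 and 44 bases before the start, and the printed *Per1* window held it once. That window is the first of a pair listed for *Per1*, and the second held none of the sequences searched. This sequence was in 7.15% of all 32851 promoter windows. *Nr1d1* held CACGTT, which 4.68% of windows did, and *Cry1* held both. *Per3* held TTATGTAA at 2 places, 205 and 158 bases before its start, against 0.938% of windows with any. TAGGTCA stood 30 bases after the second listed start of *Arntl*, and 2.61% of windows held it. TTACGTAA (0.119% of windows) and TGACGTCA (1.79%) were in no member's window. The *Dbp* window held none of these, which says only that the letters are not in this stretch.

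The clock genes spanned a wide range of levels. Levels are in CPM, the reads of a gene scaled to the size of its library after TMM normalisation, and between genes they are compared as CPM per kilobase of gene model. *Dbp*, a PAR bZIP transcription factor that carries clock output, was at 64.8 CPM per kb as a mean of 14 mice (50.7 to 76.2). *Nr1d1*, the repressor of *Arntl*, was next at 31.6 CPM per kb (19.8 to 45.9). Their ranges did not overlap each other or that of any other member. *Ciart* (5.13), *Per1* (4.07), *Per2* (2.29), *Per3* (1.94), *Cry1* (1.77) and *Clock* (1.24) followed in CPM per kb, and each of these overlapped its neighbours in that order. *Arntl* was at 0.2 CPM per kb (0.127 to 0.292), below every mouse's value for *Clock*. *Npas2* was lowest, at 0.0237 CPM per kb. Per kilobase, the mean level of *Dbp* was 324 times that of *Arntl*.

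None of the 9 members tested passed the test between indole and vehicle. All had an adjusted *p* of 0.998 in edgeR's quasi-likelihood test, and 0 of 9 had an unadjusted *p* below 0.05, against 3.81% of the 12653 genes tested (482 genes). DESeq2 and limma voom also gave 0 of 9. The log2 fold changes (indole over vehicle) ran from -0.32 to 0.28, with 4 above 0, 5 below 0 and a median of -0.02, beside a median of 0.0 over all genes tested. Of all genes, 0 (0%) had an adjusted *p* below 0.05.

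*Arntl* (chr7:113207465-113314126, GRCm38 as for all members) was the activator with the largest fold change. In vehicle mice it ranged from 1.07 to 2.2 CPM with a median of 1.66, and in indole mice from 0.958 to 1.75 CPM with a median of 1.41. The groups overlapped, and 1 of the 7 indole mice lay above the vehicle median. The log2 fold change was -0.32 with a standard error of 0.221 (unadjusted *p*=0.169), and an exact permutation test over all splits of the 14 mice gave *p*=0.145. These values rest on 16 to 45 reads per mouse. Reads in such number give a counting SD of 0.28 on the log2 scale, close to the SD of 0.32 seen between mice of a group.

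*Clock* (chr5:76209868-76304792), the usual partner of ARNTL, differed by less than its standard error. Vehicle mice had 13.7 to 19.3 CPM (median 18.8) and indole mice 12.6 to 20.1 CPM (median 15.6), a log2 fold change of -0.09 ± 0.112 (SE). The ranges of the groups overlapped. *Npas2* (chr1:39193731-39363236), which can stand in for *Clock*, had 29 reads in all 14 mice, 19 in the vehicle and 10 in the indole group. Of the 14 libraries 4 had no read, and a count of 0 allows up to 3. No fold is given for it.

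The 3 period genes, whose proteins hold back the activators, varied widely from mouse to mouse. *Per1* (chr11:69095217-69109960) ranged from 4.78 to 34.0 CPM (median 24.4) in vehicle mice and from 11.8 to 39.5 CPM (median 20.9) in indole mice. The lowest value belonged to vehicle mouse G13, the next vehicle mouse being at 17.3 CPM, and the highest to indole mouse G12. The log2 fold change of *Per1* was 0.04 ± 0.364 (SE). *Per2* (chr1:91415982-91459324) ranged from 10.2 to 20.3 CPM (median 11.6) with vehicle and from 7.53 to 19.0 CPM (median 13.7) with indole, a log2 fold change of 0.0 ± 0.192. *Per3* (chr4:151003652-151044665) ranged from 12.6 to 26.5 CPM (median 15.1) and from 8.77 to 30.2 CPM (median 16.8), a log2 fold change of 0.11 ± 0.272. For all 3 genes the ranges of the groups overlapped.

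The 2 most abundant targets had smaller standard errors. *Dbp* (chr7:45705088-45710203) had 152 to 228 CPM in vehicle mice (median 210) and 159 to 221 CPM in indole mice (median 189). Its log2 fold change was -0.06 ± 0.0971 (SE), the smallest error among the 9. *Nr1d1* (chr11:98767932-98775333) had 77.3 to 141 CPM (median 97.0) with vehicle and 60.9 to 111 CPM (median 94.6) with indole, a log2 fold change of -0.12 ± 0.133. The highest *Nr1d1* value was in vehicle mouse G1 and the lowest in indole mouse G12, at opposite ends of groups that otherwise overlapped. *Ciart* (chr3:95878503-95882251), which encodes a repressor of the ARNTL and CLOCK pair, had 4.17 to 17.3 CPM (median 13.3) and 6.39 to 22.7 CPM (median 10.5), a log2 fold change of -0.02 ± 0.315.

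*Cry1* (chr10:85131700-85185064), which encodes the late repressor of the loop, had the highest fold change of the list. It ranged from 2.89 to 6.65 CPM (median 5.03) in vehicle mice and from 4.44 to 8.99 CPM (median 6.68) in indole mice, and 5 of the 7 indole mice lay above the vehicle median. The log2 fold change was 0.28 ± 0.188 (SE; unadjusted edgeR *p*=0.157), and the exact permutation test gave *p*=0.225. The groups overlapped, and the fold change was 0.17 without G13 and 0.18 without G3.

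**Figure D1:**
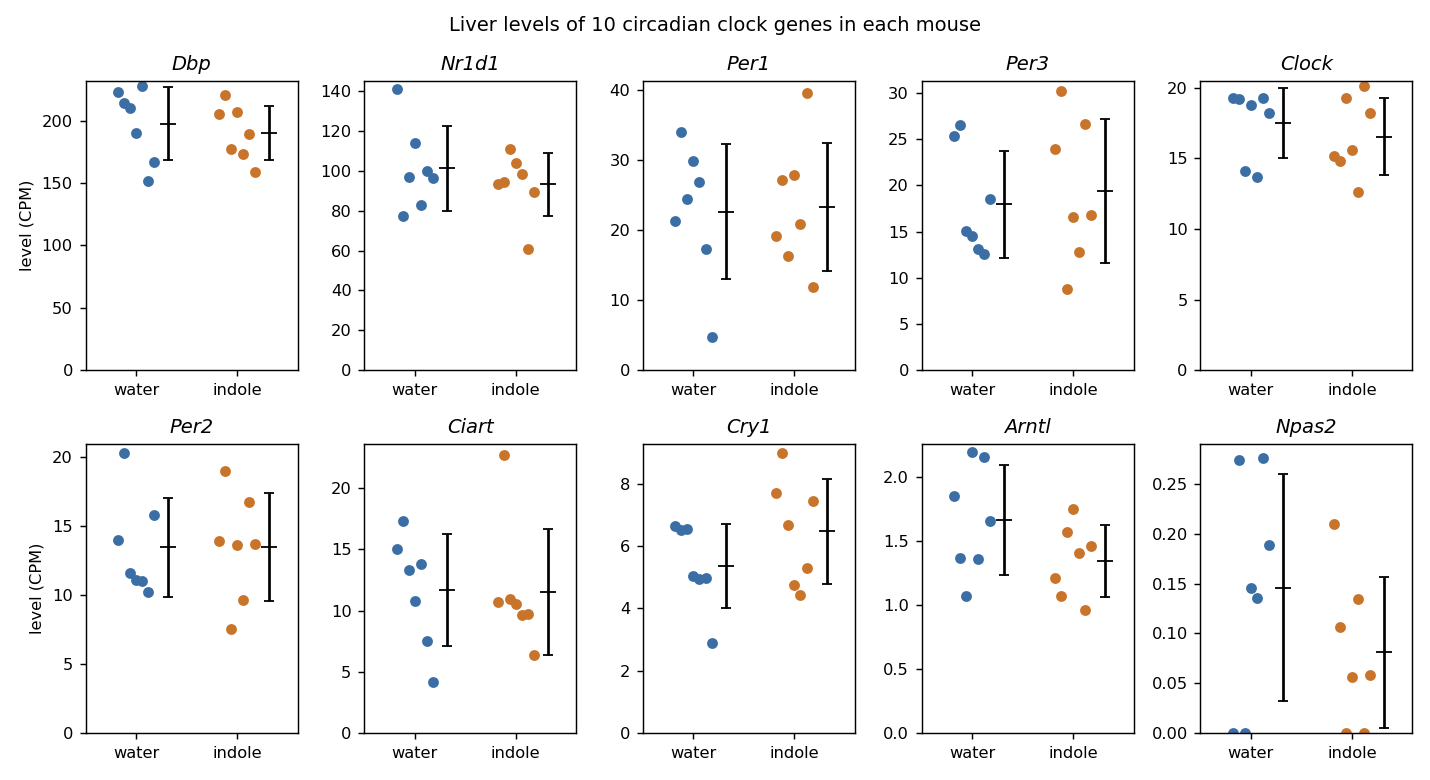
Level in CPM (vertical axes, linear from 0) of each clock gene in the 7 vehicle (water, blue) and 7 indole (orange) mice, 1 point per mouse, with the group mean and SD in black. In every panel the groups overlap, and *Per1* shows the single low vehicle mouse at 4.78 CPM.

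The members differed widely in their spread between mice. After removal of group means, the SD of log2 CPM was largest for *Per1* (0.78), *Ciart* (0.63) and *Per3* (0.54), which lay at percentiles 96.8, 92.7 and 88.1 of all genes tested. *Per2* (0.41), *Cry1* (0.4), *Arntl* (0.32) and *Nr1d1* (0.28) came next, above the median of all genes of 0.24. *Clock* (0.23) and *Dbp* (0.2) lay below it. The counting SD was 0.07 for *Per1*, 0.1 for *Ciart* and 0.02 for *Dbp*, far below their spread. For *Npas2* the counting SD was 1.0 and the SD between mice 0.67. The SD between mice was taken with a prior count of 2 added to the reads, and the counting SD without it. With so few reads the prior count narrows the spread, so these values cannot be ranked.

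Single mice carried much of that spread. Vehicle mouse G13 had *Per1* at -2.02 from its group mean in log2 CPM, *Ciart* at -1.34 and *Cry1* at -0.82, while *Per2* (0.27), *Per3* (0.1) and *Arntl* (0.03) were near or above the mean. Indole mouse G3 was high in *Ciart* (1.07), *Per3* (0.75), *Per2* (0.55) and *Cry1* (0.51), with *Arntl* at -0.28. Indole mouse G12 was high in *Per1* (0.85), *Per3* (0.56), *Per2* (0.37) and *Clock* (0.3), and low in *Nr1d1* (-0.59) and *Arntl* (-0.42). Indole mouse G5 was low in *Per3* (-1.02) and *Per2* (-0.77), with *Arntl* at 0.23 and *Nr1d1* at 0.28. No single order of the mice was shared by all members.

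**Figure D2:**
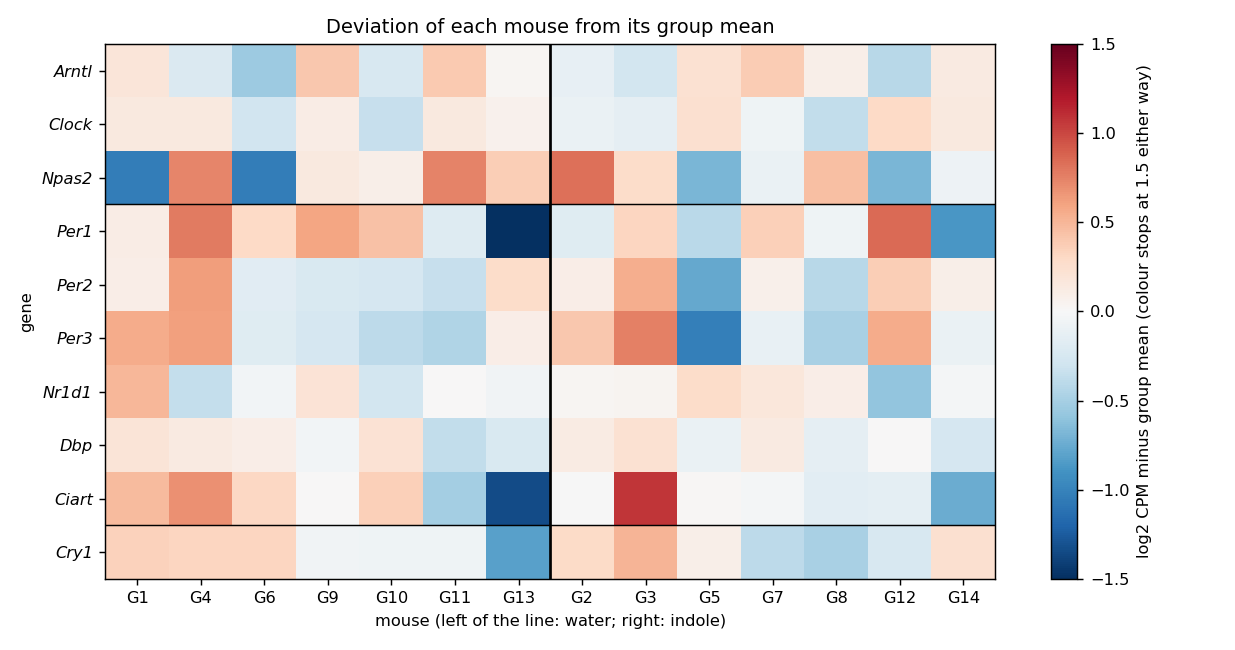
Deviation of each mouse from the mean of its group in log2 CPM (colour, red above and blue below, stopping at 1.5 either way) for the 10 members (rows; activators on top, targets in the middle, *Cry1* at the bottom). *Per2* and *Per3* have similar colours in most of the 14 mice, and G13 has the darkest *Per1* cell at -2.02.

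The 10 members form 45 pairs. Of these, 18 are opposing (*Arntl*, *Clock* or *Npas2* with one of the 6 targets), 18 are like (within either set) and 9 involve *Cry1*. Pearson's *r* and Spearman's rho were taken over the 14 mice on log2 CPM with group means removed, with two-sided *p* values from 100000 permutations within each group, adjusted over the 45 pairs. The smallest *p* these can give is 1e-05.

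More opposing pairs had a negative than a positive *r*. Of the 18, 13 had *r* below 0 and 5 above, from -0.47 to 0.64 with a median of -0.18. By tested member, 48.1% to 51% of the genes outside the list had a negative *r*. The pairs share genes, and 6 of them involve *Npas2*, with 0 to 5 reads per mouse. None of the 18 reached -0.7, a value that 1.82% of the pairings of a tested member with a gene outside the list did reach. None had an adjusted *p* below 0.05 by permutation with either measure, and 1 had an unadjusted *p* below 0.05, with a positive *r*. With 14 mice, a missed threshold does not show that a pair had no opposition.

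*Arntl* had a negative *r* with 5 of the 6 targets. Its *r* was -0.47 with *Dbp* (permutation *p*=0.115, adjusted 0.496; rho -0.41, *p*=0.171, adjusted 0.581), and -0.28 without G9 and G11, the mice farthest from its median. With *Per3* it was -0.45 (permutation *p*=0.108, adjusted 0.496; rho -0.48, *p*=0.0866, adjusted 0.459), and -0.35 without them. Within the groups it was -0.12 in vehicle mice and -0.77 in indole mice (exact permutation *p*=0.785 and 0.045), and the difference between these was not tested. *Per2* (-0.43), *Ciart* (-0.37) and *Per1* (-0.27) gave *r* of the same sign, and none of these passed. Over all other genes tested, 50% had a negative *r* with *Arntl*. Some of the 5 targets varied together (*Per2* with *Per3* at 0.93, *Dbp* with *Ciart* at 0.82), so the 5 signs are not separate results. Every *r* of *Arntl* rests on 16 to 45 reads per mouse, with a counting SD of 0.28 beside an SD of 0.32 between mice. In mouse terms, G9 and G11 had the most *Arntl* (2.2 and 2.16 CPM) with *Per3* at 14.5 and 12.6 CPM, and G12 had the least (0.958 CPM) with *Per3* at 26.6 CPM.

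The exception was *Nr1d1*, whose protein represses *Arntl* directly, with a positive value. Their *r* was 0.64 (permutation *p*=0.0172, adjusted 0.155) and rho 0.67 (*p*=0.0125, adjusted 0.14). It was 0.55 within the vehicle and 0.76 within the indole group, and 0.68 without G9 and G11. Indole mouse G12 had the lowest value of both genes in the series, and without it *r* was 0.54. After adjustment over the 45 pairs this relation did not pass, and its sign was the opposite of that of *Arntl* with the other 5 targets.

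The other activators gave less. *Clock* had negative *r* with 4 of 6 targets, from -0.37 with *Dbp* to 0.16 with *Per2*. *Npas2* had negative *r* with 4 of 6, from -0.24 to 0.19, on 0 to 5 reads per mouse. *Arntl* and *Clock*, whose proteins work as a pair, had *r* of 0.33 (permutation *p*=0.266, adjusted 0.629; rho 0.35, *p*=0.23, adjusted 0.581), with 0.74 in vehicle and -0.14 in indole mice. The difference between the groups was not tested.

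Like pairs held the strongest relations. Of the 18, 13 had *r* above 0, with a median of 0.23, and 3 reached 0.7, against 1.92% of pairings with genes outside the list. These pairs share genes too. *Per2* and *Per3* had *r* of 0.93 (permutation *p*=4e-05, adjusted 0.0018) and rho of 0.98 (*p*=1e-05, the smallest possible, adjusted 0.00045). It was 0.88 in vehicle mice, 0.96 in indole mice and 0.88 without G4 and G5. *Per2* and *Per3* ranked the mice in nearly the same order. Such values were not particular to clock genes. Picked as extremes, *Zfp704* had *r* of 0.94 with *Per2* and *Nlrp6* 0.96 with *Per3*, and neither is on the clock lists. At or above 0.7 lay 6.15% of the genes outside the list with *Per2* and 7.36% with *Per3*.

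*Dbp* and *Ciart* had *r* of 0.82 (permutation *p*=0.00081, adjusted 0.0182) and rho of 0.83 (*p*=0.00068, adjusted 0.0153), with 0.83 in vehicle and 0.81 in indole mice, and 0.83 without G11 and G14. The highest *Ciart* values, 22.7 CPM in G3 and 17.3 in G4, were in mice with 221 and 214 CPM of *Dbp*, and the lowest, 4.17 in G13, was in a mouse with 167. With G3, G9 or G14 left out, 1 at a time, the adjusted permutation *p* of this pair lay between 0.0549 and 0.0657, with *r* from 0.79 to 0.83. A size of *r* of 0.82 or more was found in 0.786% of pairings of a tested member with genes outside the list.

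*Per1* had *r* of 0.77 with *Ciart* (permutation *p*=0.00696, adjusted 0.104; rho 0.53, *p*=0.0573, adjusted 0.43), but *r* was 0.32 without G13 and G14, on which the relation rests. Without G12 alone it was 0.84 (adjusted permutation *p*=0.0159). With *Dbp* it was 0.6 (permutation *p*=0.0332, adjusted 0.249; rho 0.59, *p*=0.0359, adjusted 0.323), and 0.43 without G13 and G14. *Per1* had *r* of 0.13 with *Per2* and 0.23 with *Per3*. Neither of these had a permutation *p* below 0.05, and how they differ from *Per2* with *Per3* was not tested.

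*Nr1d1* had no *r* past the test with another target. Its *r* was -0.01 with *Dbp*, 0.04 with *Ciart*, -0.25 with *Per1*, -0.29 with *Per3* and -0.44 with *Per2*, none with a permutation *p* below 0.05. *Cry1* had *r* of 0.7 with *Ciart* (just below it before rounding; permutation *p*=0.00951, adjusted 0.107; rho 0.72, *p*=0.00557, adjusted 0.0835). It was 0.16 without G3 and G13, so this relation rests on those mice, and 0.84 without G14 (adjusted permutation *p*=0.0115). With *Arntl*, *Cry1* had *r* of -0.29.

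**Figure D3:**
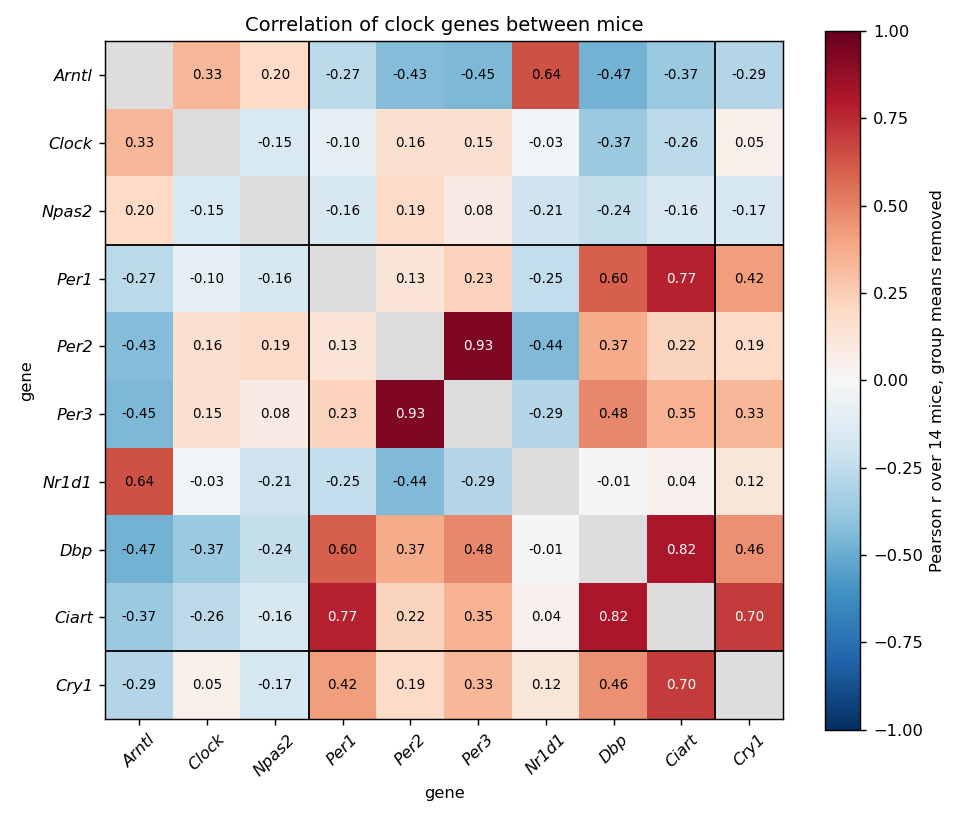
Pearson *r* of each pair of members over the 14 mice after group means were removed (colour and printed value; black lines separate activators, targets and *Cry1*). The strongest cells are *Per2* with *Per3* (0.93) and *Dbp* with *Ciart* (0.82), and in the *Arntl* row *Nr1d1* (0.64) stands against negative values for the other targets.

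**Figure D4:**
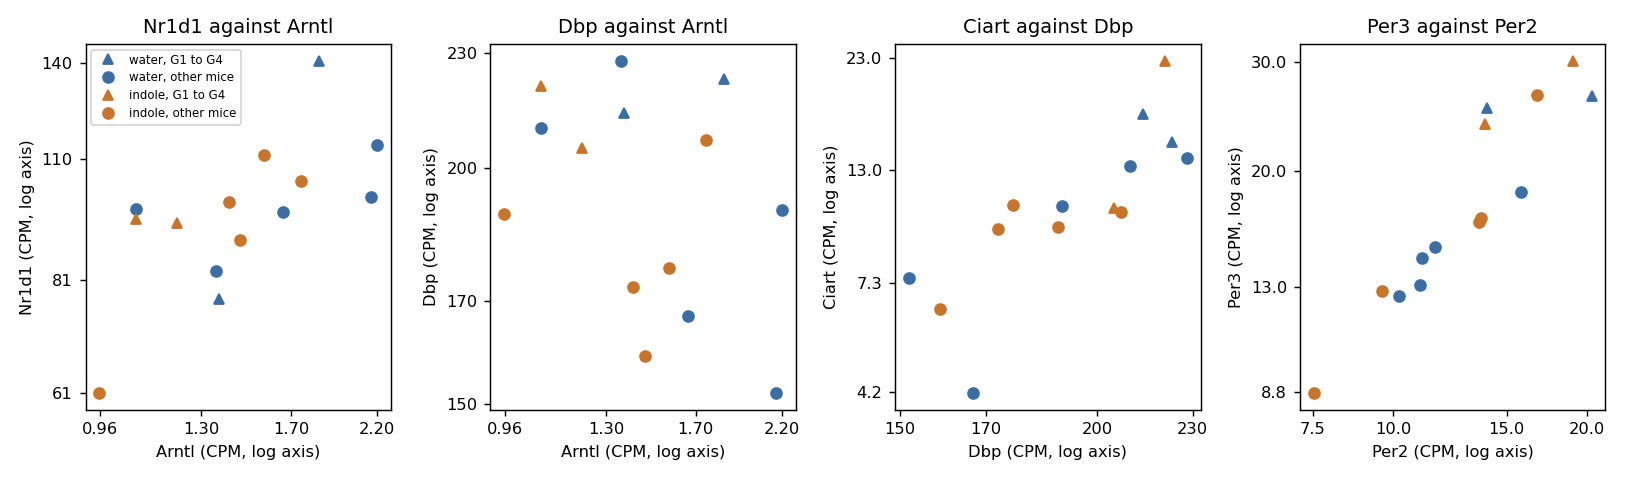
Levels of 4 pairs of members in CPM on log axes, 1 point per mouse (blue, vehicle; orange, indole; triangles, mice G1 to G4). The points of *Ciart* with *Dbp* (*r*=0.82) and *Per3* with *Per2* (*r*=0.93) lie close to a line, while those of *Nr1d1* (*r*=0.64) and *Dbp* (*r*=-0.47) with *Arntl* scatter more.

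Libraries G1 to G4, of 2 vehicle and 2 indole mice, stood apart from the other 10. Their TMM factors were 1.073 to 1.083 against 0.9313 to 1.004, and the mean length of the gene models their reads fell on was 3751 to 3867 bases against 3515 to 3764. *Per3* was at 23.9 to 30.2 CPM in these 4 mice and at 8.77 to 26.6 CPM in the other 10. Over the 14 mice, *r* with that mean length was 0.83 for *Per3* (permutation *p*=0.00053, adjusted over 30 relations 0.0159; rho 0.82, *p*=0.00068) and 0.79 for *Per2* (*p*=0.00132, adjusted 0.0188; rho 0.79, *p*=0.00189). Without the 2 most distant libraries these were 0.69 and 0.62. Within the 10 libraries they were 0.7 and 0.72 (adjusted permutation *p*=0.297 for both).

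*Per2* with *Per3* was as strong without the 4 libraries (*r*=0.96, permutation *p*=0.00012, *n*=10), and *r* was 0.81 (adjusted permutation *p*=0.022) with the mean length taken out of both genes. *Dbp* with *Ciart* was at 0.77 without the 4 (adjusted permutation *p*=0.348) and *Arntl* with *Nr1d1* at 0.72. Other like pairs changed sign without the 4. *Per2* with *Ciart* moved from 0.22 to -0.44 and *Per3* with *Ciart* from 0.35 to -0.3. Of the 18 opposing pairs, 14 had *r* below 0 without the 4, against 13 with all 14 mice. With the mean length taken out, *r* of *Arntl* with *Per3* moved from -0.45 to -0.75 (adjusted permutation *p*=0.0324) and with *Per2* from -0.43 to -0.67 (adjusted permutation *p*=0.103). Both settings were chosen after the data had been seen. The part of library make-up in the levels of *Per2* and *Per3* was not tested beyond these values.

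Of 51 tested genes of the lists around the clock, 2 had an unadjusted edgeR *p* below 0.05 between the groups, against 3.81% of all genes tested. Of 18 other core clock genes 17 were tested, 6 higher and 11 lower with indole, with a median log2 fold change of -0.08. *Bhlhe41*, which encodes an E-box-binding repressor, had a log2 fold change of -0.58 ± 0.278 (SE), with an unadjusted edgeR *p*=0.0489, an adjusted *p*=0.998 and an exact permutation *p*=0.0624. Its levels were 1.77 to 4.06 CPM (median 3.86) in vehicle and 0.906 to 4.31 CPM (median 1.97) in indole mice, on 16 to 82 reads. No other gene of this list had an unadjusted edgeR *p* below 0.05, and by exact permutation alone *Csnk1d*, a kinase of the PER proteins, did (*p*=0.0414; edgeR *p*=0.077, log2 fold change -0.12). *Bhlhe40*, a related repressor, had the highest level of the list at 24.5 CPM per kb, with a log2 fold change of -0.08.

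Among 14 clock-controlled outputs, 4 were higher and 10 lower, with none at an unadjusted edgeR *p* below 0.05 and a median log2 fold change of -0.03. *Por*, which supplies electrons to cytochrome P450 enzymes, was the highest of these at 123 CPM per kb. Feeding and fasting genes, which can shift a liver clock, were 7 higher and 4 lower of 11 tested, with a median of 0.03. *Cpt1a*, the gate of fatty acid entry into mitochondria, had a log2 fold change of -0.16 ± 0.0717 (unadjusted edgeR *p*=0.0384, adjusted 0.998; exact permutation *p*=0.021). Vehicle mice had 352 to 406 CPM of it (median 369) and indole mice 300 to 387 CPM (median 328), so the groups overlapped. Of 9 glucocorticoid-responsive genes 4 were higher and 5 lower, with a median of -0.07 and none at an unadjusted edgeR *p* below 0.05. The metallothionein gene *Mt2* had the highest level there, at 446 CPM per kb.

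The members also differed in which of these 51 listed genes they varied with. Over 459 relations, *Per3* had *r* of 0.95 with *Nr1d2*, the paralog of *Nr1d1* (permutation *p*=1e-05, the smallest possible, adjusted 0.00459; rho 0.92, *p*=3e-05). It had 0.89 with *Tef*, a PAR bZIP factor like DBP (permutation *p*=0.0002, adjusted 0.0184; rho 0.89, *p*=0.00018). Of the 17 other core clock genes 4 reached 0.7 with *Per3*, *Nr1d2* and *Tef* among them, where 7.36% of genes outside the list did. *Per2* reached it with 3 of 17, where 6.15% did, and had 0.9 with *Nr1d2* (permutation *p*=9e-05, adjusted 0.0138) and 0.89 with *Tef* (permutation *p*=0.00035, adjusted 0.0229). Without G1 to G4, *r* of *Per3* was 0.92 with *Nr1d2* and 0.83 with *Tef*. Without the 2 mice farthest in *Per3* it was 0.91 and 0.8. Among all genes outside the list, *Nr1d2* ranked 5 by *r* with *Per3*, after *Nlrp6*, *Trak1*, *Khnyn* and *Nfat5*, none of them on the clock lists.

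The *r* of *Nr1d1* with these genes was negative but did not pass. It was -0.43 with *Nr1d2* (permutation *p*=0.146, adjusted 0.512) and -0.28 with *Tef* (permutation *p*=0.361, adjusted 0.753). In vehicle mice these were -0.05 and -0.01, and in indole mice -0.73 and -0.48. *Per1* went with *Usp2*, a clock-driven ubiquitin protease (*r*=0.82, permutation *p*=0.00084, adjusted 0.0386; rho 0.86, *p*=0.00013; 0.66 without G13 and G14). *Ciart* also went with *Usp2* (*r*=0.84, permutation *p*=0.0006, adjusted 0.0326; rho 0.67, *p*=0.0115), but at 0.52 without G3 and G13. *Ciart* had 0.77 with *Mt1* and 0.75 with *Mt2*, 2 neighbouring metallothioneins (adjusted permutation *p*=0.0229 and 0.0184; rho 0.73 and 0.66, adjusted 0.161 and 0.263). At or above 0.7, 0.451% of genes outside the list went with *Per1*, and 127 of 12644 with *Ciart*. *Arntl* reached 0.7 in either direction with none of the 51, its range being -0.59 (*Nr1d2*) to 0.52 (*Lcn2*).

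**Figure D5:**
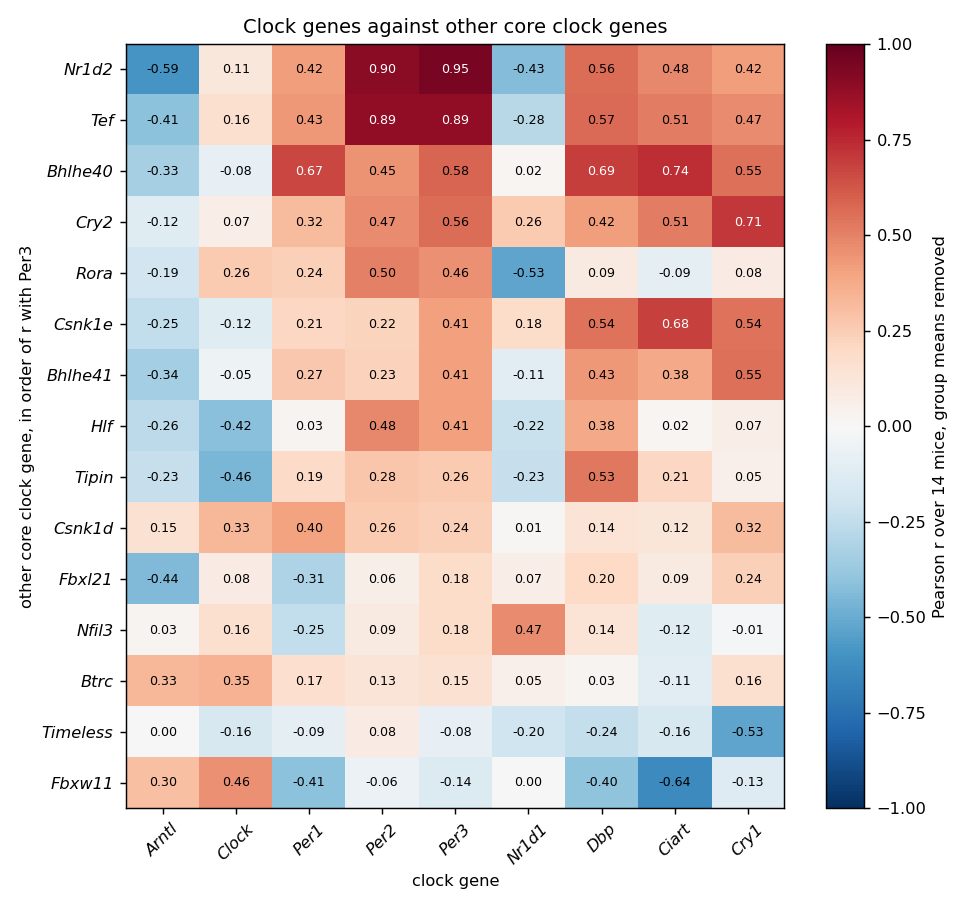
Pearson *r* over 14 mice, group means removed, of the 9 tested members (columns) with 15 of the 17 tested genes of the core clock list (rows, in order of *r* with *Per3*). *Nr1d2* and *Tef* have *r* of 0.89 to 0.95 with *Per2* or *Per3*, and -0.59 and -0.41 with *Arntl*.

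Across all 12644 genes tested outside the list, those most like *Arntl* were *5330417C22Rik* (*r*=0.85 over 14 mice), *Dnajc16* (0.84), *Jpt2* (0.81), *Jup* (0.79) and *Eftud2* (0.79). Those most opposite were *Atg12* (-0.86), *Nudt21* (-0.86), *Gm17251* (-0.85), *Ubr7* (-0.82) and *Hexdc* (-0.8). They were picked as extremes, so their *r* is a description. None is on the clock lists. At or above 0.7 lay 0.174% of these genes with *Arntl*, and at or below -0.7 lay 0.301%.

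Some members share their place in the genome with another gene, and the counting's use of strand is not given in the sources used here. *Dbp* (47911 reads) overlaps *Sphk2* on the opposite strand (8435 reads), and their *r* was -0.76 (permutation *p*=0.00425, adjusted over 4 overlaps 0.017; rho -0.71, *p*=0.0101). It was -0.89 in vehicle and -0.5 in indole mice, and -0.79 without G11 and G14. *Nr1d1* (24162 reads) overlaps *Thra* on the opposite strand (2624 reads), with *r* of -0.3. *Clock* overlaps the pseudogene *Ube2n-ps1* and *Per3* overlaps *Camta1*, both on the same strand (472 and 583 reads; *r* of 0.12 and 0.04). *Ciart* overlaps *C920021L13Rik* (60 reads). Reads of such partners could be split between them, so these members are uncertain to that extent.

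The labelled tissue was checked against markers of its cells. All 7 hepatocyte markers had reads, their sum being 75300 to 94900 CPM in vehicle and 67500 to 102000 CPM in indole mice. The 6 Kupffer cell and macrophage markers summed to 65.5 to 191 and 86.6 to 347 CPM, and this sum had *r* of 0.56 with *Arntl* (permutation *p*=0.042) and -0.54 with *Dbp* (*p*=0.0513 by permutation). The 5 endothelial markers summed to 54.5 to 95.6 and 64.8 to 120 CPM, with *r* of 0.57 with *Nr1d1* (permutation *p*=0.0459), which was 0.08 without the 2 mice farthest in *Nr1d1*. Summed hepatocyte markers had *r* of -0.57 with *Per3*, -0.52 with *Cry1* and -0.51 with *Ciart* (permutation *p*=0.0579, 0.0637 and 0.0583). Without G1 to G4 these were 0.24, 0.11 and -0.22. The other relations with a permutation *p* below 0.05 were *Npas2* with 4 bile duct markers (*r*=0.64, *p*=0.0121), *Clock* with 5 erythroid markers (*r*=0.6, *p*=0.0354; rho 0.75, *p*=0.00682) and *Ciart* with 5 stellate cell markers (*r*=0.53, *p*=0.0306). These markers summed to 3.21 to 9.49 CPM for bile duct, 204 to 1090 CPM for erythroid cells and 139 to 283 CPM for stellate cells. *Clock* with the erythroid sum was at 0.17 in vehicle and 0.81 in indole mice, a difference that was not tested. *Ciart* with the stellate sum was at 0.18 without G1 to G4. No marker of these 6 lists was at 0 in all mice. Lists of 3 T cell and 3 B cell markers, of which 0 passed the expression filter, were also set against the members. With those lists included, the smallest adjusted permutation *p* over 80 such relations was 0.412 (rho, 0.259). The part of these cells in the members' spread was not tested further.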

How the data were processed

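Liver RNA of 14 mice was sequenced, and each mouse's group and name (G1 to G14) came from its labels. Raw counts of uniquely mapped reads per gene were deposited by the authors, from HISAT2 alignments to GRCm38, beside gene lengths and coordinates. The counting tool and its strand setting are not given in the sources used here. Totals were 15197498 to 21060376 counts per mouse, and no pair of libraries in a group agreed within sampling noise (lowest chi-square per degree of freedom 12.38 over 42 pairs).

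Groups were compared with edgeR 4.0.16 (TMM, filterByExpr, robust quasi-likelihood fit, Benjamini–Hochberg over 12653 genes) in R 4.3.3, and with an exact permutation test on log2 CPM (prior count 2). A standard error is the log2 fold change divided by the root of the F statistic. The counting SD is that of Poisson counts at the gene's mean, without the prior count. Correlations used numpy 2.4.6. Each library was taken as 1 mouse. Members, lists and the rule for named genes (members, list genes with an unadjusted *p* below 0.05 or the highest CPM per kb, and the 5 genes at each end of *r* with *Arntl*) were chosen with earlier results of these data known. List genes and genes outside the lists that are named for their *r* with other members were picked after their values were seen. Some list genes are not reported here. Alternatives were DESeq2 1.42.0, limma 3.58.1 voom, other scalings and filters, other correlation settings and leaving out each mouse. The code was tested on simulated data.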

Additional observations from a re-analysis of the deposited data

Results flagged for a closer look

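In 4 of 20 sets of 7 mice (10 members in 2 groups), the highest or lowest mouse lay far from the nearest other on the log2 CPM scale, with a gap above Dixon's critical share of the set's range. Chance gives such a gap in about 1 in 20 sets. *Per1* was low in vehicle mouse G13 (4.78 CPM), the gap being 0.655 of the range. *Cry1* was low in the same mouse (2.89 CPM), with a gap of 0.644. *Nr1d1* was low in indole mouse G12 (60.9 CPM), with a gap of 0.642. *Ciart* was high in indole mouse G3 (22.7 CPM), with a gap of 0.582.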

How the results depend on the processing

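No tested member passed an unadjusted *p* of 0.05 between the groups under any test, scaling, filter or omission of a mouse that was run. With no filter on low counts, 1336 genes in all had an unadjusted *p* below 0.05, against 482. DESeq2 called 1 gene at an adjusted *p* below 0.05, *Cyp2c29* (adjusted *p*=0.0393, log2 fold change 0.42), named after its value was seen. The log2 fold change of *Ciart* was 0.01 with limma voom, and that of *Clock* was 0.03 without G1 to G4. Leaving out 1 mouse at a time, that of *Per1* ran from -0.14 to 0.17, *Per2* from -0.1 to 0.13, *Per3* from -0.03 to 0.24, *Ciart* from -0.28 to 0.11, *Cry1* from 0.17 to 0.35, *Arntl* from -0.39 to -0.23, *Nr1d1* from -0.18 to -0.02 (without G1), *Clock* from -0.14 to -0.03 (without G8) and *Dbp* from -0.11 to -0.02 (without G14; -0.02 also without G10). Opposing pairs at or below -0.7 numbered 1 in the indole mice alone and 1 with the mean gene length per read removed (*Arntl* with *Per3* both times), and 0 under the other settings. Without 1 mouse, the median *r* of the opposing pairs ran from -0.26 to -0.11. No paired analysis was possible because the mice of the groups share no number. The causes were not tested. Depth limits *Arntl* and *Npas2* most.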
